A study of Mus musculus with 32 samples.

Results

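The 10 genes described here encode the MHC class I presentation machinery of the mouse. They were chosen by symbol as H2-K1, H2-D1, B2m, Tap1, Tap2, Tapbp, Psmb8, Psmb9, Nlrc5 and Erap1, and are 10 of the 55103 rows of the deposited table. All 10 had enough counts to be tested, among 20474 genes in all. The data were bulk RNA sequencing of 32 KPC36 tumours in 4 groups of 8, asking how the transcriptomes of carbon-ion and photon treated tumours differ. The groups were tumours treated with carbon ions (label carbon_treated), their untreated controls (carbon_ctrl), tumours treated with photons (photon_treated) and their untreated controls (photon_ctrl). KPC is the usual name for lines from a mouse model of pancreatic cancer, and all 4 groups carry this 1 line, whose genotype the labels do not give. The labels used here also give no dose, host strain, age or sex. Tumours were taken at days 4 and 7 after treatment, and the day of a given library is not assigned here. Replicate numbers are names only. Nothing states that the 8 libraries of a group came from separate animals, so p-values measure the spread between these libraries.

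MHC class I molecules carry short peptides from inside the cell to its surface, where CD8 T cells read them. Proteasomes cut the peptides, and in cells exposed to interferon-gamma the subunits Psmb8 and Psmb9 replace constitutive ones. Tap1 and Tap2 form the pump that moves peptides into the endoplasmic reticulum, Erap1 trims them there, and tapasin, the product of Tapbp, holds the pump and the empty class I molecule together. A class I molecule is a heavy chain (H2-K or H2-D here) bound to beta-2-microglobulin (B2m). Nlrc5 is the class I transactivator, which acts with the RFX, CREB/ATF and NF-Y factors at a conserved promoter module holding X and Y boxes. Tumours often show lowered expression of these genes, and macrophages, dendritic cells and other leukocytes within a tumour express them too.

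Total estimated counts per library ran from 13891863 to 71645903. The epithelial markers (Krt8, Krt18, Krt19, Krt7, Epcam and Cdh1) were detected in every group, with sums of 2388 to 5351 CPM (counts scaled to library size) over the 32 libraries, which goes with the tumour label. Leukocyte, fibroblast, endothelial and, in some libraries, skeletal muscle markers were detected as well, so the tissue was mixed. In such tissue fewer cells of a type and less RNA per cell cannot be told apart. Library titles begin with D or M, with no stated meaning. The letter D marks 7 libraries, all in the carbon-ion arm (4 controls, 3 irradiated). CPM values are not scaled to gene length, so levels are compared between libraries and not between genes.

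Of the 10 genes, 7 lie on chromosome 17 between positions 33919478 and 35267497 of GRCm38, within the mouse MHC (Tapbp, H2-K1, Psmb9, Tap1, Psmb8, Tap2 and H2-D1). Tap1 and Psmb9 are neighbours that run in opposite directions, with RefSeq starts separated by 225 bases. B2m lies on chromosome 2, Nlrc5 on chromosome 8 and Erap1 on chromosome 13. The RefSeq promoter table of GRCm38.p6 held 8 of the 10, all but Nlrc5 and Tap2. The 250 bases before each start were searched on both strands for an X2 core (TGACG) followed by a Y box (ATTGG) at 10 to 30 bases. This pair occurred in H2-K1, H2-D1 and B2m, each time with a gap of 20 bases, and in 0.642% of 32851 promoters. The 3 stretches are shown since Nlrc5 and the RFX complex are known to act at this module. X2 and Y are in capitals, each stretch is on its gene's strand, and positions count back from the gene's RefSeq start. H2-K1 has 2 RefSeq starts, and its positions refer to the one nearer the module. From the other start the pair lies 55 to 26 bases upstream.
H2-K1, chr17:34000359-34000388, minus strand, 41 to 12 bases before the start: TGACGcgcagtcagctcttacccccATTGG
H2-D1, chr17:35262993-35263022, plus strand, 101 to 72 bases before the start: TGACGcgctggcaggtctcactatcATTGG
B2m, chr2:122147609-122147638, plus strand, 78 to 49 bases before the start: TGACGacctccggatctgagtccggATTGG
Between the heavy chains 23 of the 30 bases were identical.

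The kappa-B sequence of enhancer A, spelled by the first run of capitals in the stretches that follow, was found in H2-K1 and H2-D1 and in 10 promoters of the table (0.0304%). In both genes a shortened interferon response element (GAA, any 2 bases, GAAA) lay on the opposite strand next to it. That shorter pattern had a match in 6.31% of promoters. The stretches from the kappa-B sequence to the response element are shown with both in capitals because both heavy chains share them, with 29 of their 30 bases identical.
H2-K1, chr17:34000429-34000458, minus strand, 111 to 82 bases before the start: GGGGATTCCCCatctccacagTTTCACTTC
H2-D1, chr17:35262923-35262952, plus strand, 171 to 142 bases before the start: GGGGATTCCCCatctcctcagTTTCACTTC
In B2m a full interferon-stimulated response element (GAAA, any 2 bases, GAAA) was found, as in 2.98% of promoters. This longer pattern has a different spacing from the shorter one, which had no match in the B2m window. It is the longer one that is in capitals in the stretch that follows.
B2m, chr2:122147538-122147567, plus strand, 149 to 120 bases before the start: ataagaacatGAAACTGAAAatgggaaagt
Matches to these letters are descriptions and not measured binding. No match was found within this window for Tap1, Psmb9, Psmb8, Tapbp or Erap1.

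Across the machinery, B2m was the 1 gene that passed edgeR's test in any of 5 comparisons, a call that several other settings did not give, and it was higher in tumours irradiated with carbon ions than in tumours irradiated with photons. After carbon ions 0 of 10 genes passed against their own controls, with edgeR and also with DESeq2 and limma-voom, and 0% of 20474 genes were called by edgeR. At an unadjusted p under 0.05 there were 2 of 10, against 5.75% of all genes. All 10 log2 fold changes were positive in this comparison, where 51.5% of all tested genes had a positive value. Their median was 0.32, with a range of 0.015 to 0.51, and the median of all genes was 0.0066. The lowest value, that of Erap1, turned to -0.008 under upper-quartile scaling. After photons 0 of 10 passed, where 3.81% of all genes were called (1.71% higher, 2.1% lower). With limma-voom 1 of 10 passed, and with DESeq2 0. By edgeR 2 of 10 had an unadjusted p under 0.05, against 21.5%. Of the 10, 9 had negative values, with a median of -0.23 and a range of -0.53 to 0.034, and the median of all genes was -0.00060.

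For the difference between the carbon-ion and photon effects, 0 of 10 passed (0.0781% of all genes called, 0.0342% higher and 0.044% lower; 0 of 10 also with DESeq2 and limma-voom), and 5 of 10 had an unadjusted p under 0.05, against 13% of all genes. The 10 differences were all positive, with a median of 0.63 against 0.017 for all genes, but that of Tapbp, at 0.069, turned to -0.002 without photon-irradiated replicate 3. Between the irradiated groups 1 of 10 was called higher after carbon ions, where 3.55% of all genes were called higher and 1.54% lower, 5.08% in all. At the unadjusted threshold there were 5 of 10, against 25.2%. The median of the 10 was 0.45 and that of all genes 0.0082. The controls of the 2 arms differed in 9.14% of all genes (5.13% with carbon-ion controls above photon controls and 4.01% with them below) and in 0 of these 10, by edgeR, DESeq2 and limma-voom, with a member median of -0.14, and 1 of 10, Tapbp, had an unadjusted p under 0.05, against 23.1% of all genes. The tests are edgeR's quasi-likelihood test with Benjamini-Hochberg adjustment over 20474 genes. The comparisons share libraries, so their signs are not independent of each other. For each of the 10 genes the libraries of the groups compared overlapped in all 4 direct comparisons. Groups without overlap were rare among all genes: 0.0195% higher and 0.00977% lower after carbon ions, 0.205% and 0.269% after photons, 0.0977% and 0.0635% between the irradiated groups, and 0.879% and 0.425% between the controls.

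**Figure D1:**
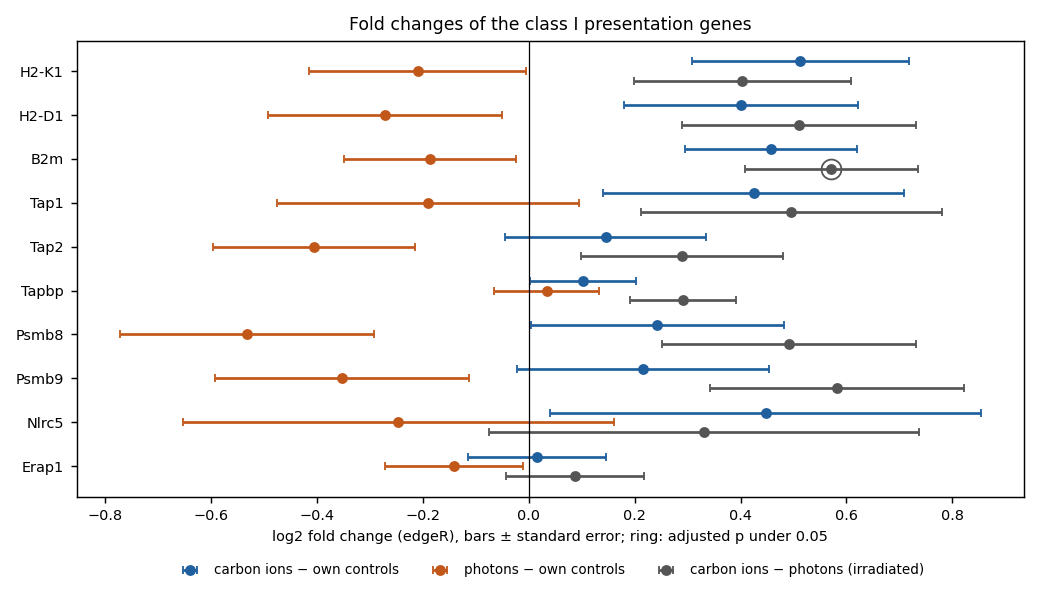
Log2 fold changes (x axis, edgeR) of the 10 genes (y axis) for carbon ions against their controls, photons against their controls, and carbon ions against photons among irradiated tumours, with bars of 1 standard error. Only the B2m value of 0.57 between the irradiated groups is ringed as passing the adjusted threshold of 0.05.

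The classical heavy chains bind the peptide and face the T cell receptor. H2-K1 had a lowest, median and highest value of 51.2, 78.6 and 118.5 CPM in the carbon-ion controls and 54.7, 118.9 and 198.7 in the carbon-ion irradiated tumours. Its values were 69.5, 97.2 and 159.7 CPM in the photon controls and 62.1, 83.3 and 120.5 CPM in the photon-irradiated tumours. Of the carbon-ion irradiated libraries, 6 of 8 lay above the median of their controls and 4 above all of them, while 2 lay below that median. The log2 fold change of H2-K1 after carbon ions was 0.51 (SE 0.21, adjusted p = 0.722), and after photons it was -0.21 (SE 0.21, adjusted p = 0.591). The difference between the effects was 0.72 (SE 0.29, adjusted p = 0.288), so no comparison of H2-K1 passed. The photon value was -0.087 without photon control 3 and -0.14 without photon-irradiated replicate 1.

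H2-D1 had a lowest, median and highest value of 99.6, 148 and 219.99 CPM in the carbon-ion controls and 101, 201 and 340.2 CPM after carbon ions. It had 112, 155 and 289.6 CPM in the photon controls and 76.9, 128 and 217 after photons. In the carbon-ion irradiated group 1 library, replicate 8, stood far above the rest, and the next highest was at 211 CPM. The log2 fold changes of H2-D1 were 0.40 (SE 0.22, adjusted p = 0.921) after carbon ions, -0.27 (SE 0.22, adjusted p = 0.506) after photons and 0.51 (SE 0.22, adjusted p = 0.148) between the irradiated groups. The signs were those of H2-K1, and none of these values passed. Without carbon-ion irradiated replicate 8 the carbon-ion value of H2-D1 was 0.24. Its photon value was -0.11 without photon control 3 and -0.17 without photon-irradiated replicate 3. Heavy chain genes share some sequence: 6.15% of the 75-base words of H2-D1 transcripts and 1.12% of those of H2-K1 also occur in transcripts of other genes. The host's class I alleles are not given, so reads may also differ from the reference. With H2-K1, H2-D1 and the H2-Q rows added together, the log2 fold changes were 0.47 (SE 0.22, adjusted p = 0.846) after carbon ions and -0.26 (SE 0.22) after photons.

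B2m encodes the light chain that every class I molecule needs. After carbon ions it ran from 213 to 354 CPM (median 256), and in their controls from 155 to 224 CPM (median 184). All 8 carbon-ion irradiated libraries lay above the median of their controls, and 6 of 8 lay above every control. In the photon controls B2m ran from 140.3 to 253 CPM (median 192), and after photons from 78.4 to 242 CPM (median 172). Of the photon-irradiated libraries 5 lay below the median of their controls and 3 above it. All 8 carbon-ion irradiated libraries were above the photon-irradiated median and 5 of 8 above every photon-irradiated library. This was the comparison that passed, with a log2 fold change of 0.57 (SE 0.16, adjusted p = 0.0378). DESeq2 also called it, but the call was lost with limma-voom (adjusted p = 0.104), with no filter on low counts (0.0714), with only the 2 groups in the fit (0.103) and with a term for the title letter (0.0580).

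Against its own controls B2m had a log2 fold change of 0.46 after carbon ions (SE 0.16, adjusted p = 0.585) and of -0.19 after photons (SE 0.16, adjusted p = 0.539), and neither passed. The photon value was -0.11 without photon-irradiated replicate 1 and -0.070 without replicate 3. The difference between these effects was 0.64 (SE 0.23, adjusted p = 0.229). The control groups differed by -0.073 (SE 0.16, adjusted p = 0.841) in B2m. The call between the irradiated groups was lost in 7 of 32 fits that each left out 1 library (carbon-ion irradiated replicates 2, 5 and 8 and photon-irradiated replicates 1, 3, 6 and 7), with adjusted p from 0.0209 to 0.0854 and log2 fold changes from 0.47 to 0.66. Among M-titled libraries alone B2m had 0.66 with an adjusted p of 0.0514. Leukocyte markers moved in the same comparison. The pan-leukocyte list (Ptprc, Coro1a, Laptm5 and Cd53) had 4 of 4 positive values and 1 call, Cd53, with a log2 fold change of 0.66 (SE 0.17, adjusted p = 0.0290). Its summed level was 188 to 403 CPM after carbon ions and 141 to 238 CPM after photons, and no marker was at 0. The part of these cells in the B2m value was not tested. Skeletal muscle markers, which differed widely between these groups too, are given with the other markers.

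**Figure D2:**
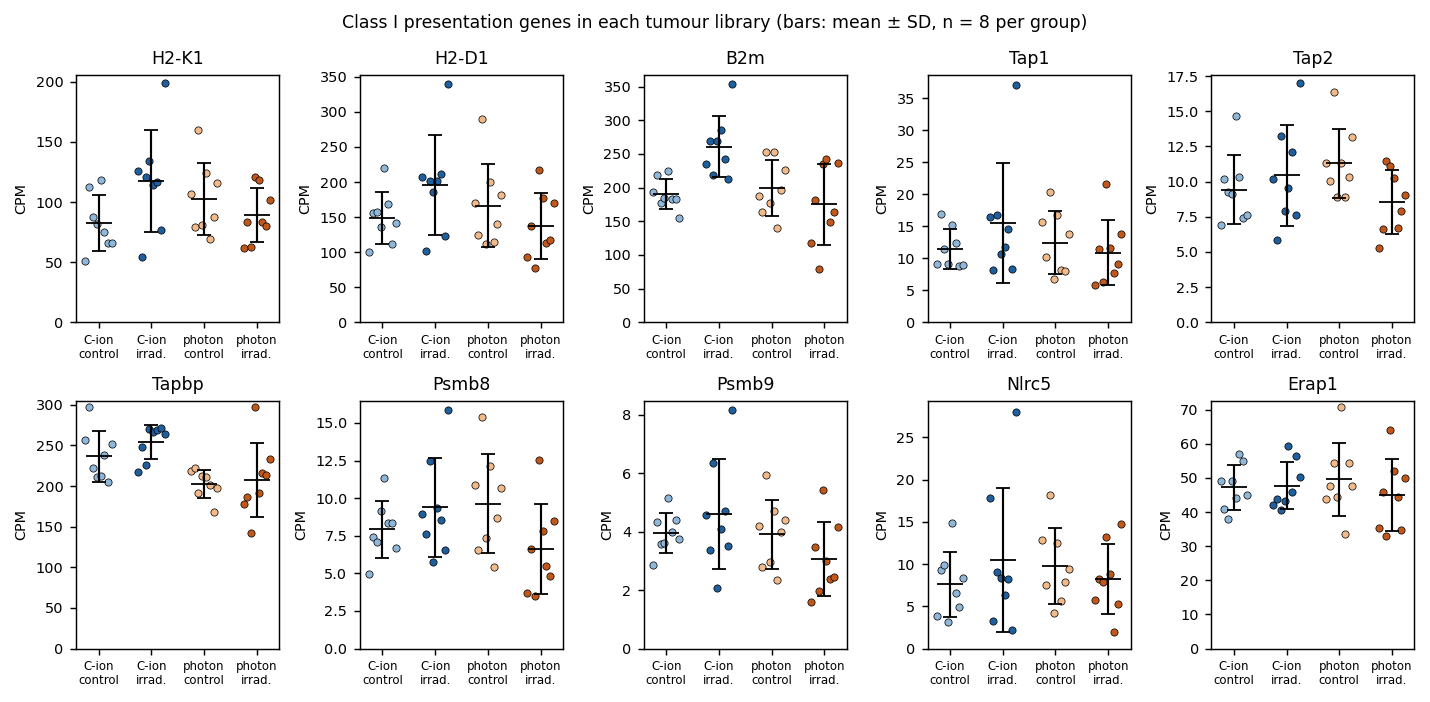
CPM (y axis, linear from 0) of each of the 10 genes in the 32 libraries by group (x axis). Points are libraries, and bars are the mean and SD of 8. For B2m all carbon-ion irradiated points lie above 212 CPM, and for Tap1 and Nlrc5 a single carbon-ion irradiated library lies far above the others.

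The TAP pump showed no called change, and the wide range of Tap1 after carbon ions came from 1 library. Tap1, the first of its chains, had a lowest, median and highest value of 8.78, 10.3 and 16.9 CPM in the carbon-ion controls and 8.13, 13.2 and 37.2 after carbon ions. It had 6.76, 11.9 and 20.3 CPM in the photon controls and 5.78, 10.2 and 21.5 after photons. After carbon ions 1 library, replicate 8, lay above every control, and the others ran from 8.13 to 16.8 CPM. Of these 2 lay below every control, but at 8.13 and 8.30 CPM they were close to the lowest control of 8.78. The Tap1 log2 fold change of 0.42 after carbon ions (SE 0.28, adjusted p = 0.995) was 0.10 without carbon-ion irradiated replicate 8. After photons it was -0.19 (SE 0.28, adjusted p = 0.745), with a range of -0.40 (without photon-irradiated replicate 4) to -0.048 (without photon control 3) when 1 library was left out.

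Tap2, the partner chain, had a lowest, median and highest value of 6.90, 9.15 and 14.7 CPM in the carbon-ion controls and 5.85, 9.88 and 17.02 after carbon ions. In the photon controls the values were 8.92, 10.8 and 16.3 CPM, and after photons 5.30, 8.47 and 11.5. After photons 6 of 8 libraries lay below the control median and 4 below every control. Its log2 fold change after photons was -0.41 (SE 0.19, adjusted p = 0.209), which did not pass, although limma-voom with sample weights gave -0.49 with an adjusted p of 0.0380. After carbon ions Tap2 had 0.15 (SE 0.19, adjusted p = 0.997), which was 0.012 without carbon-ion irradiated replicate 8 and 0.27 without carbon-ion control 5.

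Tapbp, the gene of the loading chaperone tapasin, had the lowest coefficient of variation of the 10 genes in 3 of the 4 groups, the exception being the carbon-ion controls, where B2m had 11.7% and Tapbp 13.2%. Its lowest, median and highest values were 205, 230.0 and 297 CPM in the carbon-ion controls and 217, 265 and 271 after carbon ions. They were 168, 206 and 222 CPM in the photon controls and 142, 203 and 297 after photons. All 8 carbon-ion irradiated libraries lay above the photon-irradiated median, but 7 of 8 carbon-ion controls also lay above the photon control median. Carbon ions set against photons gave Tapbp a log2 fold change of 0.29 (SE 0.10, adjusted p = 0.0743), and between the controls 0.22 (SE 0.10, adjusted p = 0.167). The effects against own controls were 0.10 (SE 0.10, adjusted p = 0.997) after carbon ions and 0.034 (SE 0.10, adjusted p = 0.880) after photons. The carbon-ion value was 0.16 without carbon-ion control 2, and the photon value was -0.052 without photon-irradiated replicate 4 and 0.10 without replicate 3. In M-titled libraries alone Tapbp passed between the irradiated groups, with 0.40 and an adjusted p of 0.0440. It also passed with DESeq2, with 0.30 and an adjusted p of 0.0420.

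Psmb8 and Psmb9 encode the inducible catalytic subunits beta5i and beta1i. Psmb8 had a lowest, median and highest value of 4.97, 7.86 and 11.3 CPM in the carbon-ion controls and 5.74, 8.77 and 15.8 after carbon ions. Its values were 5.41, 9.67 and 15.4 CPM in the photon controls and 3.53, 6.05 and 12.6 after photons. After photons 7 of 8 libraries lay below the control median and 3 below every control. This gave the most negative value of the 10 genes, a log2 fold change of -0.53 (SE 0.24, adjusted p = 0.187), which did not pass. After carbon ions Psmb8 had 0.24 (SE 0.24, adjusted p = 0.997), or 0.098 without carbon-ion irradiated replicate 8, and the difference between the effects was 0.78 (SE 0.34, adjusted p = 0.327).

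Psmb9 had a lowest, median and highest value of 2.86, 3.87 and 5.14 CPM in the carbon-ion controls and 2.08, 4.34 and 8.14 after carbon ions. It had 2.33, 4.08 and 5.95 CPM in the photon controls and 1.58, 2.72 and 5.43 after photons. Of the carbon-ion irradiated libraries 7 of 8 lay above the photon-irradiated median. The log2 fold change there was 0.58 (SE 0.24, adjusted p = 0.127), the highest of the 10 genes by size but not past the threshold. Against own controls Psmb9 had 0.22 (SE 0.24, adjusted p = 0.997) after carbon ions and -0.35 (SE 0.24, adjusted p = 0.411) after photons. The carbon-ion value was 0.051 without carbon-ion irradiated replicate 8 and 0.13 without replicate 3, and the photon value was -0.24 without photon control 3.

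The RNA of inducible over constitutive subunits can be read as a ratio within a library, which library scaling does not touch. Such a ratio does not measure the exchange of subunits in proteasomes. The tissue was mixed, and the part of leukocytes in the ratio was not tested. Psmb8 takes the place of Psmb5, Psmb9 that of Psmb6, and Psmb10 that of Psmb7. The mean log2 ratio of Psmb8 to Psmb5 was -2.71 ± 0.36 (SD, n = 8) in the carbon-ion controls, -2.57 ± 0.49 after carbon ions, -2.51 ± 0.38 in the photon controls and -2.88 ± 0.46 after photons. It differed by -0.37 after photons (two-sided exact permutation test over 12870 splits, p = 0.107, adjusted over 9 tests p = 0.480) and by 0.14 after carbon ions (exact permutation p = 0.510, adjusted p = 0.656). For Psmb9 over Psmb6 the differences were 0.063 after carbon ions and -0.24 after photons (exact permutation p = 0.827 and 0.249). For Psmb10 over Psmb7 they were 0.047 and 0.15 (exact permutation p = 0.608 and 0.220). None of the 9 tests, which include the difference between the effects for each ratio, passed, and the lowest adjusted p was 0.480. Several of these differences depended on 1 library. After carbon ions that of Psmb8 over Psmb5 was 0.044, that of Psmb9 over Psmb6 -0.078 and that of Psmb10 over Psmb7 0.009 without carbon-ion irradiated replicate 8. After photons that of Psmb9 over Psmb6 was -0.14 without photon-irradiated replicate 1 and -0.15 without photon control 3, and that of Psmb10 over Psmb7 was 0.094 without photon-irradiated replicate 4.

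**Figure D3:**
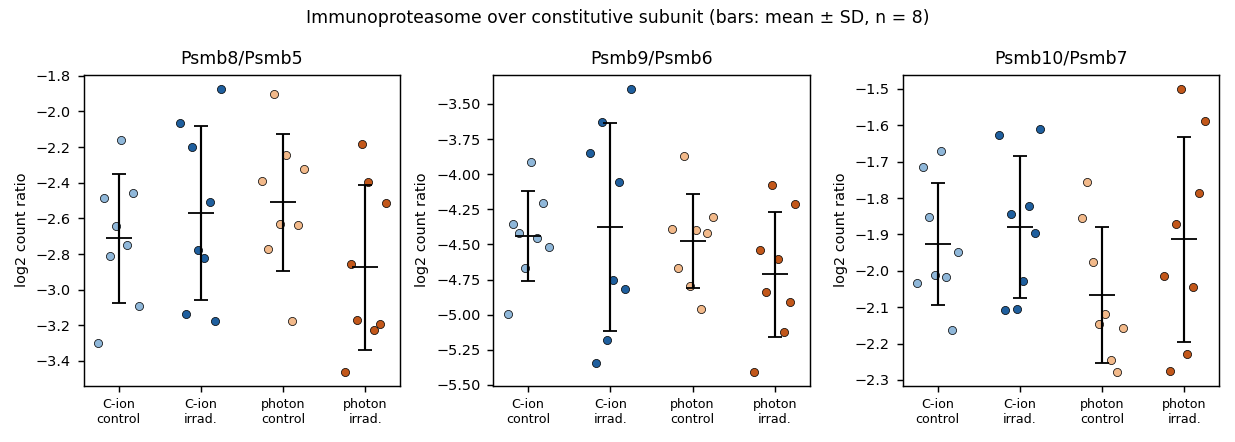
Log2 ratio of estimated counts (y axis; each panel has its own range, which does not start at 0) of each inducible proteasome subunit to the constitutive one it replaces, per library and group (x axis). Bars are the mean and SD of 8 libraries, and the groups overlap in every panel.

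The other proteasome genes gave no calls. Of the 8 listed (Psmb10, Psme1, Psme2, Psme3, Psmb5, Psmb6, Psmb7 and Pomp) 0 passed in any of the 5 comparisons. All 8 had negative log2 fold changes after photons, with a median of -0.18. Psmb7, a constitutive catalytic subunit, had -0.29 (SE 0.12, adjusted p = 0.153), and Psme2, a subunit of the interferon-induced PA28 activator, had -0.29 (SE 0.13, adjusted p = 0.182). Psme1, the other PA28 subunit, had 0.28 after carbon ions (SE 0.13, adjusted p = 0.813) and -0.22 after photons (SE 0.13, adjusted p = 0.326). Psmb5, Psmb6 and Psmb10 lay between 0.087 and 0.14 after carbon ions.

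Nlrc5 was the most variable of the 10 genes in each group. Its lowest, median and highest values were 3.14, 7.47 and 14.9 CPM in the carbon-ion controls and 2.21, 8.33 and 28.0 after carbon ions. They were 4.22, 8.66 and 18.2 CPM in the photon controls and 2.01, 8.08 and 14.8 after photons. The coefficient of variation was 46.5% to 81.8% over the 4 groups, against 8.35% to 22.1% for Tapbp. The log2 fold change was 0.45 after carbon ions (SE 0.41, adjusted p = 0.997) and 0.049 without carbon-ion irradiated replicate 8. After photons it was -0.25 (SE 0.41, adjusted p = 0.772), or -0.053 without photon control 3. For carbon ions against photons it was 0.33 (SE 0.41, adjusted p = 0.634), and without carbon-ion irradiated replicate 8 it was -0.059.

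Erap1, the trimming peptidase, showed no shift beyond its spread. Its lowest, median and highest values were 38.0, 46.9 and 57.1 CPM in the carbon-ion controls and 40.7, 44.9 and 59.5 after carbon ions. They were 33.6, 47.7 and 70.7 CPM in the photon controls and 33.0, 45.1 and 64.0 after photons. The log2 fold change was 0.015 (SE 0.13, adjusted p = 0.997) after carbon ions, with a sign that changed with the scaling, and -0.14 (SE 0.13, adjusted p = 0.565) after photons, or -0.050 without photon control 5.

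Within the groups most of the machinery varied together. Each library's log2 CPM was taken as a deviation from its group mean, over 32 libraries. Nlrc5 was related to 7 of the 9 other genes after adjustment over 9 tests (permutation test within groups, 100000 permutations). Its relation was closest to Tap1 (r = 0.80, rho = 0.81), H2-D1 (r = 0.78, rho = 0.78), H2-K1 (r = 0.75, rho = 0.79) and Tap2 (r = 0.72, rho = 0.70), with permutation p for r of 3e-05 or less and adjusted p of 3e-05 to 6.75e-05. The permutation p of 1e-05 for Tap1, H2-D1 and H2-K1 is the smallest these permutations can give. Psmb9 (r = 0.63, rho = 0.68, permutation p = 0.00051), Psmb8 (r = 0.60, rho = 0.62, permutation p = 0.00055) and B2m (r = 0.43, rho = 0.46, permutation p = 0.0164, adjusted p = 0.0210) were more loosely related to it. The share of all genes related to Nlrc5 is not given here, so the count of 7 has no background.

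Tapbp (r = 0.036, rho = -0.023, permutation p = 0.852) and Erap1 (r = 0.091, rho = 0.043, permutation p = 0.625) showed no relation to Nlrc5 that passed. Erap1 differed in sign between the arms, with r of -0.58 in the carbon-ion controls and -0.31 after carbon ions. It had 0.56 in the photon controls and 0.44 after photons, so its pooled value describes neither arm. Without the 2 libraries farthest from the Nlrc5 median, r was 0.82 for Tap1, 0.80 for H2-K1 and 0.42 for B2m, so these relations did not rest on those libraries. Within single groups of 8, r of Nlrc5 with Tap1 ran from 0.63 in the photon-irradiated tumours to 0.95 in the photon controls. In the 25 M-titled libraries it was 0.81, and that with B2m was 0.54. H2-K1, H2-D1 and B2m, whose promoters hold the printed X2 and Y module, were not alike in this: B2m had a lower r than Tap1, Tap2, Psmb8 and Psmb9, and a difference between these r values was not tested.

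**Figure D4:**
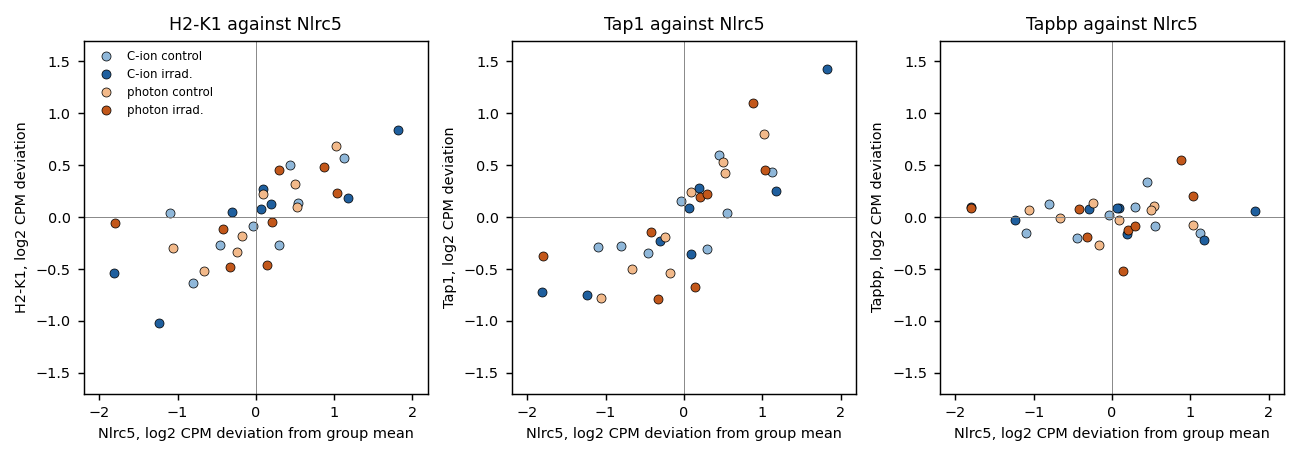
Deviation of log2 CPM from the group mean in each of 32 libraries for Nlrc5 (x axis) against H2-K1, Tap1 and Tapbp (y axis), coloured by group. The points for H2-K1 (r = 0.75) and Tap1 (r = 0.80) slope upwards, and those for Tapbp (r = 0.036) do not.

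Over all 45 pairs of the 10 genes, r ran from -0.023 (Tap2 with Tapbp) to 0.94 (Psmb8 with Psmb9), with a median of 0.66, and 44 pairs were positive. Pairs with Nlrc5 and the other pairs were adjusted separately, and 32 of the 45 passed. Some of the 32 changed sign between groups. H2-D1 with Erap1 had r of -0.34 in the carbon-ion controls and -0.003 after carbon ions. The same pair had 0.59 in the photon controls and 0.94 after photons. B2m with Tapbp (r = 0.50, rho = 0.18) had r of -0.21 in the photon controls. H2-K1 and H2-D1, the pair of heavy chains, had r = 0.94 (rho = 0.90, permutation p = 1e-05). Tap1 and Psmb9, the divergent neighbours, had r = 0.84 (rho = 0.84, permutation p = 1e-05), and Tap1 had r = 0.91 with H2-D1 (rho = 0.88, permutation p = 1e-05), which lies farther away in the MHC. Without the 2 libraries farthest from the median these were 0.92, 0.78 and 0.90. The same libraries were often the highest or lowest for several genes. Carbon-ion irradiated replicate 8 had the highest value of all 32 libraries for 8 of the 10 genes, with a mean deviation of 0.81. Photon-irradiated replicate 3 had the lowest of 32 for 5 genes and replicate 1 for 3. Photon-irradiated replicate 4, photon control 3 and carbon-ion control 5 were each the highest of their group for 7 genes.

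**Figure D5:**
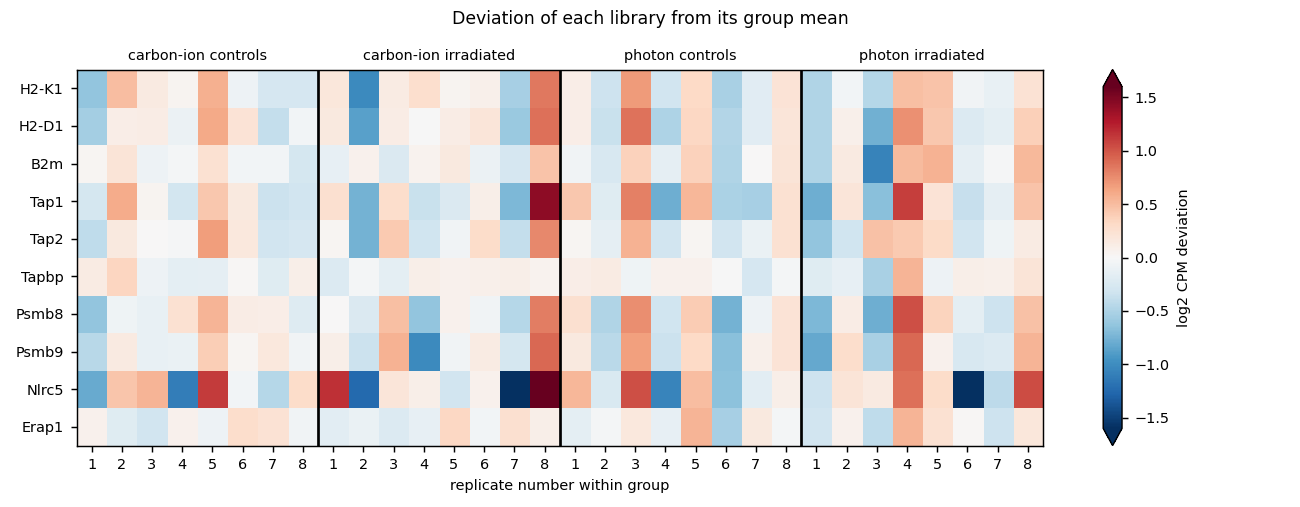
Deviation of log2 CPM from the group mean (colour, red above and blue below, limited to the range of the colour bar) for the 10 genes (rows) in each library (columns, by group and replicate). In many columns most rows share the same sign, as in carbon-ion irradiated replicate 8, but some columns are mixed, as in carbon-ion control 3. Tapbp and Erap1 reach no further than 0.55 in either direction.

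The same libraries were high or low in leukocyte markers. Carbon-ion irradiated replicate 8 had the highest summed pan-leukocyte level, 403 CPM, and the highest macrophage level, 933 CPM, of all 32. Photon-irradiated replicates 3 and 1 had the lowest pan-leukocyte sums, 141 and 151 CPM. Over the 32 libraries, the mean deviation of the pan-leukocyte markers was related to 9 of the 10 genes after adjustment over 40 tests, with a median r of 0.80. The share of all genes related to the marker lists is not given here, so such counts have no background. The macrophage and monocyte list (Adgre1, Csf1r, Cd68, C1qa, C1qb, Mrc1, Ly6c2 and Ccr2) was also related to 9 of 10, with a median r of 0.80 and a highest r of 0.94 with Tap1 (rho = 0.92, permutation p = 1e-05, adjusted p = 2.35e-05). Without the 2 libraries farthest from the median of that list r for Tap1 was 0.92. Tapbp was the exception for both lists, with r of 0.25 and 0.26. Erap1 is among the 9, but its r with the pan-leukocyte list was -0.29 in the carbon-ion controls and -0.23 after carbon ions, against 0.65 in the photon controls and 0.90 after photons. With the macrophage list it was -0.30, -0.14, 0.69 and 0.90 in the same groups, so the pooled value does not describe Erap1 in the carbon-ion arm. The other 8 genes had a positive r with both lists in every group.

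The epithelial list gave a pattern that changed between groups. Over the 32 libraries 7 of 10 genes were negative. Within groups 9 of 10 were negative in the carbon-ion controls and 8 after carbon ions, but 4 in the photon controls and 2 after photons. Tap1 had r = -0.87 after carbon ions and 0.35 after photons, and B2m had -0.62 in the carbon-ion controls and 0.53 after photons. A pooled value therefore does not describe most of these genes, and the 3 that passed kept 1 sign in every group. Tap2 had r = -0.64 with it (rho = -0.65, permutation p = 0.00053, adjusted p = 0.000964), Nlrc5 r = -0.52 (rho = -0.43, permutation p = 0.00765, adjusted p = 0.0118), and Tapbp a positive r of 0.47 (rho = 0.45, permutation p = 0.00903, adjusted p = 0.0134). Within single groups r with this list ran from -0.81 to -0.23 for Tap2, from -0.83 to -0.11 for Nlrc5 and from 0.42 to 0.58 for Tapbp. Interferon-gamma responsive genes outside class I were related to 8 of 10, with a median r of 0.64. Among M-titled libraries Tap1 had r = 0.96 with the macrophage list. These relations hold between libraries and do not say which cells made the RNA.

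Marker lists also moved between groups. After photons the pan-leukocyte list had 1 of 4 called, Coro1a at -0.63 (SE 0.18, adjusted p = 0.0376). The macrophage list had 2 of 8 called, Csf1r at -0.54 (SE 0.14, adjusted p = 0.0260) and Mrc1 at -0.77 (SE 0.22, adjusted p = 0.0431). All 4 pan-leukocyte and 7 of 8 macrophage values were negative, in the comparison in which 9 of the 10 class I genes were negative. Pan-leukocyte sums were 184 to 344 CPM in the photon controls and 141 to 238 CPM after photons. In the carbon-ion arm they were 207 to 307 CPM and 188 to 403 CPM. Macrophage sums were 434 to 886 CPM in the photon controls, 317 to 562 after photons, 498 to 738 in the carbon-ion controls and 467 to 933 after carbon ions. None of these markers was at 0 throughout a group, and the part of leukocytes in the class I values was not tested. Skeletal muscle markers had the largest shift of the marker lists after photons, with 5 of 5 negative, a median log2 fold change of -3.10 and 5 of 5 with an unadjusted p under 0.05 but 0 called. Their sums were 3.15 to 1160 CPM (median 576) in the photon controls and 0.96 to 300.5 CPM (median 6.13) after photons, and their part in the class I values was not tested.

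Dendritic cell markers, which label the cells that prime CD8 T cells, were low throughout, with sums of 11.8 to 33.96 CPM, and 2 of 7 fell after photons, Zbtb46 by 0.58 (SE 0.11, adjusted p = 0.00622) and Batf3 by 0.83 (SE 0.24, adjusted p = 0.0434). Neutrophil markers had 2 of 4 tested called lower after photons, Cxcr2 at -0.93 (SE 0.20, adjusted p = 0.0129) and Csf3r at -0.79 (SE 0.19, adjusted p = 0.0210). T cell markers summed to 4.05 to 15.4 CPM. After photons Cd3d, a part of the T cell receptor complex, was called lower at -1.99 (SE 0.56, adjusted p = 0.0413) while Cd8a was called higher at 1.23 (SE 0.36, adjusted p = 0.0453), both with group means below 1 CPM. Carbon-ion irradiated tumours exceeded photon-irradiated ones in 3 of 8 macrophage markers, C1qb at 0.63 (SE 0.16, adjusted p = 0.0258), C1qa at 0.58 (SE 0.15, adjusted p = 0.0303) and Csf1r at 0.54 (SE 0.14, adjusted p = 0.0282). Neutrophil genes S100a8 at 1.35 (SE 0.36, adjusted p = 0.0317) and S100a9 at 1.31 (SE 0.33, adjusted p = 0.0266) were called higher in the same comparison. Skeletal muscle markers had 5 of 5 positive values there, with a median of 3.15 and sums of 3.04 to 2951 CPM after carbon ions against 0.96 to 300.5 CPM after photons, and 0 of 5 were called. The lowest p in that list belonged to Mylpf, a myosin light chain, at 3.23 (SE 1.07, adjusted p = 0.0667), and Tnnt3, a troponin, at 3.02 (SE 1.10, adjusted p = 0.0905).

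After photons 6 of 6 fibroblast markers had negative values, with a median of -0.47, and 1 was called. All 5 endothelial markers had negative values, with a median of -0.45, and 2 were called. In each list 4 had an unadjusted p under 0.05. Pdgfrb, a receptor of fibroblasts and pericytes, had -0.52 (SE 0.13, adjusted p = 0.0265), and the endothelial genes Emcn and Tek had -0.55 (SE 0.13, adjusted p = 0.0203) and -0.91 (SE 0.25, adjusted p = 0.0356). Between the controls Pdgfra at -0.77 (SE 0.22, adjusted p = 0.0257), Col1a2 at -0.59 (SE 0.19, adjusted p = 0.0479) and Emcn at -0.49 (SE 0.13, adjusted p = 0.0187) were called lower in the carbon-ion arm, and the epithelial cadherin Cdh1 higher, at 0.41 (SE 0.13, adjusted p = 0.0404). None of 7 NK cell and cytotoxic markers was called in any comparison. Of 5 B cell and plasma cell markers only Cd79b had enough counts to be tested, and it was not called. Of these, Gzma, a granzyme, had 1.07 after carbon ions (SE 0.54, adjusted p = 0.877), Ncr1, an NK cell receptor, had -0.74 after photons (SE 0.47, adjusted p = 0.371), and Cd79b, a part of the B cell receptor, had -0.14 after photons (SE 0.23, adjusted p = 0.768).

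The other class I and class I-like heavy chains were listed as 24 genes, of which 21 were in the table and 16 were tested. None passed after carbon ions, where 12 of 16 were positive with a median of 0.24. H2-Q7, a Qa-2 gene, had 0.89 (SE 0.39, adjusted p = 0.777) and H2-Q4 had 0.63 (SE 0.34, adjusted p = 0.903). These rows are uncertain, since 22.6% of the 75-base words of H2-Q7 occur in other genes. After photons 2 of 16 were called lower, H2-Q10 at -1.12 (SE 0.24, adjusted p = 0.0111) and Hfe, a regulator of iron uptake with a class I fold, at -0.54 (SE 0.15, adjusted p = 0.0402). Hfe was also called higher after carbon ions than after photons, by 0.56 (SE 0.15, adjusted p = 0.0333).

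H2-T23 encodes Qa-1, which presents to NK cell receptors. It ran from 47.6 to 74.7 CPM (median 63.8) after carbon ions, from 39.6 to 56.7 (median 46.9) in their controls, from 31.4 to 53.2 (median 38.5) in the photon controls and from 24.1 to 61.1 (median 42.1) after photons. It was called higher after carbon ions than after photons, at 0.55 (SE 0.14, adjusted p = 0.0263), and had 0.40 against its own controls (SE 0.14, adjusted p = 0.553). All 8 carbon-ion controls also lay above the photon control median, and the controls differed by 0.24 (SE 0.14, adjusted p = 0.295), which did not pass. Of its 75-base words 13.1% occur in other genes.

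Among the 6 measured loading and trimming partners 1 was called. Calr, the chaperone calreticulin, ran from 424 to 624 CPM after carbon ions and from 311 to 490 CPM (490.1) after photons, with a log2 fold change of 0.39 between them (SE 0.10, adjusted p = 0.0279). Pdia3, the disulphide isomerase of the loading complex, had -0.33 after photons (SE 0.10, adjusted p = 0.0629) and 0.29 between the irradiated groups (SE 0.10, adjusted p = 0.0857). Canx, the membrane-bound chaperone calnexin, had 0.16 there (SE 0.08, adjusted p = 0.207).

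The 12 transcription regulators of class I gave 1 call, in the opposite direction to the machinery. Rfx5, the DNA-binding subunit of the RFX complex that binds the X box, ran from 16.8 to 23.3 CPM after carbon ions and from 23.6 to 29.5 CPM after photons. The 8 libraries of each group did not overlap, as for 0.0635% of all genes in this direction. Rfx5 was lower after carbon ions than after photons, at -0.37 (SE 0.09, adjusted p = 0.0215), and had -0.26 against its own controls (SE 0.09, adjusted p = 0.521). Irf1, which binds interferon response elements, had 0.07 after carbon ions (SE 0.06, adjusted p = 0.997) and -0.11 after photons (SE 0.06, adjusted p = 0.280).

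Interferon-gamma itself was near the limit of detection, with a group mean of at most 0.022 CPM for Ifng. Of the 11 tested interferon signalling genes 0 passed after either beam. Ifngr1, a chain of the interferon-gamma receptor, was called higher in the carbon-ion arm both among irradiated tumours, at 0.39 (SE 0.11, adjusted p = 0.0354), and among controls, at 0.47 (SE 0.11, adjusted p = 0.00646). Ifngr2, the other chain, was called higher among irradiated tumours, at 0.41 (SE 0.11, adjusted p = 0.0338).

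Interferon-gamma responsive genes outside class I gave a partly different picture. After carbon ions 0 of 13 passed, 9 of 13 had an unadjusted p under 0.05 against 5.75% of all genes, and the median was 0.74 against 0.32 for the class I genes. After photons the median was 0.27, on the other side of 0 from the class I genes, and 2 of 13 were called in opposite directions. Cxcl10, a chemokine that draws T cells, rose by 2.005 on the log2 scale (SE 0.45, adjusted p = 0.0135), from 0.90 to 2.38 CPM in the controls to 1.13 to 15.8 CPM after photons. After carbon ions Cxcl10 had a similar value of 1.84 (SE 0.44, adjusted p = 0.314), which did not pass. With either beam 6 irradiated libraries lay above every control for Cxcl10. Ciita, the class II counterpart of Nlrc5, fell by 0.73 after photons (SE 0.16, adjusted p = 0.0129). Its value after carbon ions was -0.54 (SE 0.16, adjusted p = 0.425). Nlrc5 had -0.25 and 0.45 in the same comparisons, neither of which passed.

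The 8 genes of class I surface turnover gave no calls after either beam. Between the controls 1 was called higher and 2 lower in the carbon-ion arm, with values from -1.40 to 0.21. Between the irradiated groups 1 was called lower after carbon ions, with values from -1.32 to 0.19. Susd6, which with Tmem127 and Wwp2 removes class I from the surface, was called lower among carbon-ion controls, at -0.28 (SE 0.08, adjusted p = 0.0270), and Wwp2 higher, at 0.21 (SE 0.07, adjusted p = 0.0496).

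Of 12278 other genes with a mean log2 CPM of at least 2, the 6 whose deviations over 32 libraries were most like the mean deviation of the 10 class I genes were Trim30a (r = 0.95), Tgfbi (0.94), Nckap1l (0.94), Nfam1 (0.93), Gvin2 (0.93) and Ifi209 (0.92). Nckap1l is a haematopoietic actin regulator, Trim30a and Ifi209 are interferon-induced, and Tgfbi encodes a matrix protein. Nfam1 was the 1 of the 6 called after photons, at -0.76 (SE 0.18, adjusted p = 0.0192), and Ifi209 had the highest value after carbon ions, 1.18 (SE 0.34, adjusted p = 0.404).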

How the data were processed

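RNA was taken from tumour tissue kept in RNAlater and made into stranded mRNA libraries, per the labels' protocols. The authors deposited 1 table of estimated counts (expected counts) per gene symbol for 32 libraries. FastQC 0.12.0, Trimmomatic 0.32 and RSEM 1.3.3 and the build mm10 are named per the submitters' processing notes, with no role or order. Only 4 of 853648 values above 0 were whole (tolerance 1e-06), so the deposited estimated counts were rounded before testing, although whole counts had been assumed in the design. Rounding moved library totals by at most 0.00403%. How reads shared between similar genes were counted is not given in the sources used here, which bears on the heavy chain rows.

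Genes were kept by filterByExpr (minimum count 10). edgeR 4.0.16 in R 4.3.3 was fitted to all 32 libraries with TMM scaling, a coefficient per group and the quasi-likelihood test, giving 5 contrasts with Benjamini-Hochberg adjustment over 20474 genes and a threshold of 0.05. Standard errors came from the F statistic. Log2 CPM used a prior count of 2, and ratios of counts a pseudocount of 0.5. On simulated counts the pipeline was tested for recovery of known changes. Alternatives were limma 3.58.1, DESeq2 1.42.0, other scalings, no filter, leaving out each library, M-titled libraries alone, a term for the title letter, fits of 2 groups and added heavy chain rows. Motifs and positions came from RefSeq for GRCm38.p6, the build mm10 stands for, and 75-base words from GENCODE M21 transcripts.

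The members and all lists were chosen with earlier results of these data known. Besides the 10 members, genes were named by a rule: from each list those past the threshold in any contrast, at most 4 by p, or else the 2 with the lowest p, plus set partners of the machinery and the 6 genes most like it. Replicates were numbered in the order of the sample list, which only names them. Some genes that the rule names are not reported here. The relations to marker lists were added after the data were seen.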

Additional observations from a re-analysis of the deposited data

Results flagged for a closer look

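Dixon's test at the 95% level was run on 52 groups of 8 libraries, and 3 highest libraries stood apart by more than its critical value, where chance alone gives about 1 in 20 groups. In the carbon-ion irradiated group, replicate 8 had an H2-D1 level of 340 CPM, with a gap to the next library of 0.539 of the group's range. The same library had a Tap1 level of 37.2 CPM, with a gap of 0.703 of the range. In the carbon-ion controls the highest Tap2 library stood at 14.7 CPM, with a gap of 0.556 of the range. The first library also had the highest leukocyte and macrophage marker sums of the series, and the part of these markers in its class I levels was not tested.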

How the results depend on the processing

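No paired analysis was possible because the labels give the groups no shared replicate numbers. Between the irradiated groups the count of called genes was 1, B2m. It was 0 with no filter on low counts (B2m adjusted p = 0.0714), with limma-voom (0.104), with only the 2 groups in the fit (0.103) and with a term for the title letter (0.0580), and 2 with DESeq2, B2m and Tapbp. Leaving out 1 library at a time gave 0 to 3 calls. M-titled libraries alone also gave 1 call, but it was Tapbp, not B2m. With limma-voom the photon effect had 1 call, Tap2, in place of 0. The other counts of called class I genes were 0 under each alternative run.

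The counts over all genes, which set the background for B2m and the others, moved more. For the irradiated groups the 1041 calls became 2018 with DESeq2, 104 with limma-voom, 319 with no filter, 57 with only the 2 groups, 502 with the title letter and 108 to 2159 without 1 library. For photons 781 became 1518, 3057 and 431 with the first 3 of these and 239 to 1656 without 1 library. The 16 differences became 270, 379 and 4, with 94 under upper-quartile scaling, 1 among M-titled libraries and 5 to 108 without 1 library. The 1871 between controls became 3165 with limma-voom, 973 among M-titled libraries, 1081 with the title letter and 1178 to 2196 without 1 library. After carbon ions DESeq2 called 17 genes, and leaving out 1 library gave 0 to 5.

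Erap1 after carbon ions, at 0.015, was -0.008 with upper-quartile scaling, -0.016 with a term for the title letter and -0.040 to 0.062 without 1 library at a time (-0.009 and -0.024 without carbon-ion controls 2 and 3, -0.040 and -0.027 without irradiated replicates 5 and 7). Without 1 library at a time Tapbp after photons ran from -0.052 to 0.104, its difference between the effects from -0.002 to 0.153, and Nlrc5 between the irradiated groups from -0.059 to 0.499. The log2 ratio of Psmb8 to Psmb5 after carbon ions was -0.018 among M-titled libraries. That of Psmb9 to Psmb6 was -0.168 there, and -0.078 to 0.201 without 1 library at a time. Without 1 library at a time the other ratio differences ran from 0.044 to 0.23 (Psmb8 to Psmb5) and from 0.009 to 0.083 (Psmb10 to Psmb7) after carbon ions, and from -0.466 to -0.28 (Psmb8 to Psmb5), -0.329 to -0.139 (Psmb9 to Psmb6) and 0.094 to 0.205 (Psmb10 to Psmb7) after photons. The causes were not tested. With 8 libraries a group and standard errors of 0.10 to 0.41 for the direct fold changes of the 10 genes, a missed threshold does not show that levels were alike. Collection day could not be used, and the D title occurs in the carbon-ion arm alone.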
